A study of Mus musculus with 8 samples.

Results

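The 10 genes examined here belong to the mouse trophoblast lineage: Plac1, Cdx2, Elf5, Tfap2c, Hand1, Gata3, Krt8, Krt18, Gata2 and Tead4. They were followed through RNA-seq of mouse embryonic stem cells (mESCs) flown on a recoverable satellite. The genes were listed by name, and each of the 10 symbols matched 1 of the 50686 Ensembl identifiers in the table of read counts. The 8 libraries differed in location (Space or Ground), genotype and culture duration. R9wt are wild-type mESCs and R9del are Rad9-/- mESCs, and both were kept in culture devices that let gas through, inside an airtight payload without control of oxygen or carbon dioxide, for 1 day (D1) or 5 days (D5). Each condition had 1 library, and the labels name no separate cultures, so each comparison by location, genotype or duration set 4 libraries against 4, with the other 2 variables balanced between the sides, and p-values here measure the spread between these libraries only. D1 and D5 cultures also differed in the number of cells seeded and in the device group with its own temperature controller, and for 5 days more R9del than R9wt cells were seeded. Cells were fixed at the end of culture and then kept cold, so the storage of D1 cells also began earlier. These differences cannot be told apart from culture duration, or from its combination with genotype. Space and Ground differed in microgravity, radiation and the vibration of launch and return together.

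The trophoblast is the first lineage to leave the embryo proper, and it forms the trophectoderm of the blastocyst and later the placenta. Tead4 acts at the top of this programme and, with its coactivators Yap1 and Wwtr1, drives Cdx2, while Gata3, Gata2, Tfap2c, Elf5 and Eomes hold or extend the trophoblast state and Hand1 is needed for trophoblast giant cells. Krt8 and Krt18 pair into the first intermediate filaments of simple epithelia such as the trophectoderm, and Plac1 is an X-linked gene of the placenta. mESCs come from the inner cell mass and normally contribute little to this lineage.

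Library totals lay between 58238440 and 96416907 counts. Levels are given as CPM, the count of a gene relative to the library total scaled by edgeR's TMM factor, and as RPKM, the same per kilobase of merged exon length, where genes are compared with each other. Rad9a was at 20.8 to 28.6 CPM in the 4 R9del libraries and at 70.3 to 93.4 CPM in the 4 R9wt libraries. The cell type label was checked with 10 mESC markers, all of which were detected in every library, among them Pou5f1 at 958 to 1804 CPM and Nanog at 207 to 649 CPM. In these bulk samples, a larger share of cells of a type and more RNA per cell cannot be told apart.

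Over the 8 libraries, median levels ordered the genes, per length, as Krt18 (146 RPKM), Krt8 (58.4 RPKM), Tfap2c (21.7 RPKM), Hand1 (11.5 RPKM), Tead4 (5.17 RPKM), Gata3 (2.34 RPKM), Plac1 (1.03 RPKM), Gata2 (0.771 RPKM), Cdx2 (0.23 RPKM) and Elf5 (0.0195 RPKM). The ranges of neighbours in this order overlapped. Tead4 varied least, from 7.66 to 25 CPM, and Plac1 most among the 9 genes with reads in every library, from 0.105 to 41.7 CPM. Space_R9wt_D5 was the highest library for 6 of the 10 genes (Plac1, Elf5, Hand1, Gata3, Krt8 and Krt18), and Space_R9wt_D1, its 1 day counterpart, was the lowest for 5 (Plac1, Tfap2c, Hand1, Krt8 and Tead4).

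**Figure D1:**
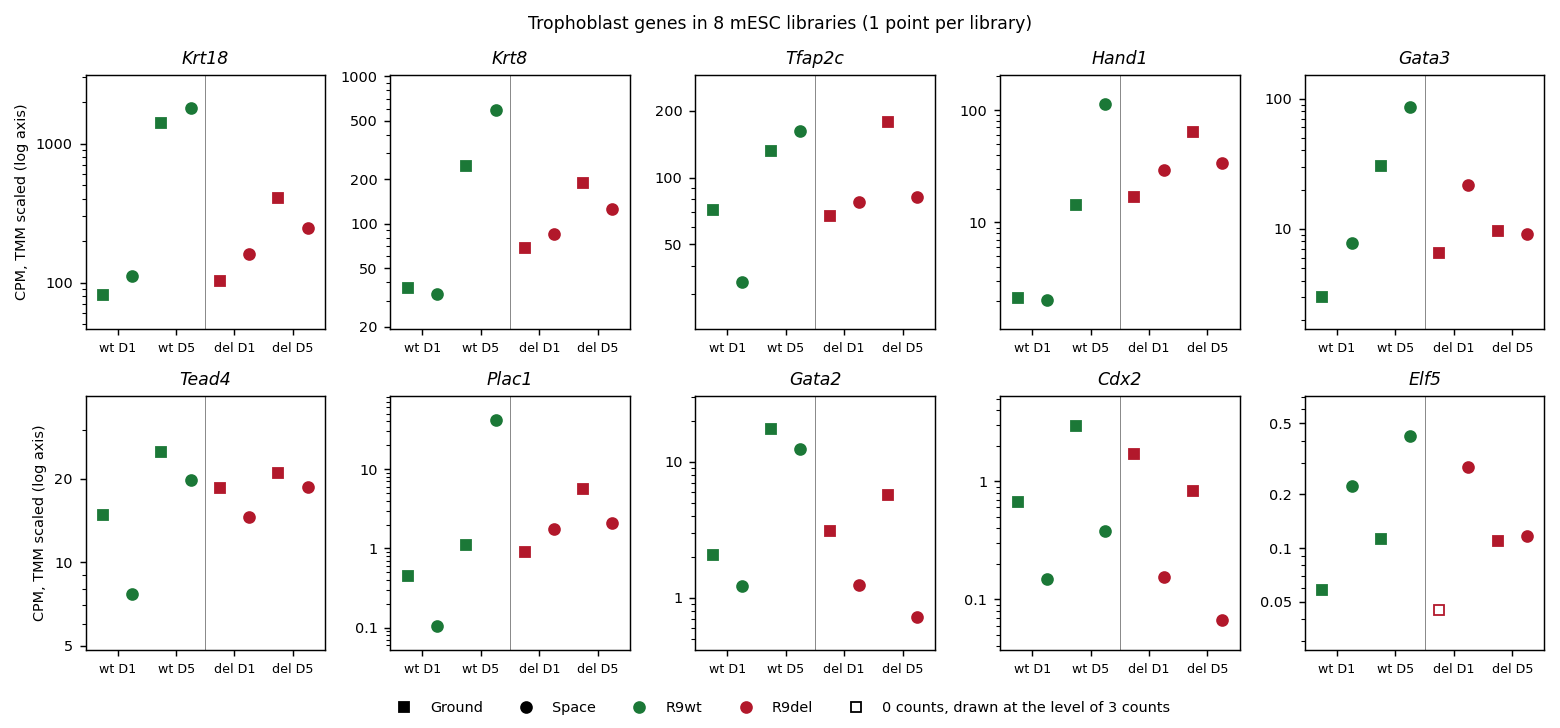
Level of each of the 10 genes in the 8 libraries, in TMM-scaled CPM on a log axis whose range differs between panels. Squares are Ground and circles Space libraries, green is R9wt and red R9del, each point is 1 library, and the open square is the library without a count of Elf5, drawn at 3 counts. Krt18, Krt8, Gata3 and Gata2 were highest in both R9wt D5 libraries, and Cdx2 was lower in Space than in every Ground library.

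Plac1, which encodes a secreted protein of the trophoblast, lies at chrX:50423172-50593288 on the minus strand (mm9). The 250 bases before its RefSeq starts are shown because its level had this widest range. The first ends at the distal start (chrX:50593288-50593537) and the second at the proximal start (chrX:50467583-50467832), both read 5′ to 3′ on the minus strand, from RefSeq windows of GRCm38.p6 placed on mm9 by an exact and single match. Capitals mark matches, on either strand, to GATAA, bound by GATA factors, and to TTTAT, the core of the motif of Cdx2.
Plac1 distal: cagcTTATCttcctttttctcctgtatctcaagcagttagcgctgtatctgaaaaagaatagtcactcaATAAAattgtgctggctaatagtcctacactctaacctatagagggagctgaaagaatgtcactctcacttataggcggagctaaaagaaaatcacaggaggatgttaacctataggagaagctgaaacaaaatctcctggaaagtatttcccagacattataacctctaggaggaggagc
Plac1 proximal: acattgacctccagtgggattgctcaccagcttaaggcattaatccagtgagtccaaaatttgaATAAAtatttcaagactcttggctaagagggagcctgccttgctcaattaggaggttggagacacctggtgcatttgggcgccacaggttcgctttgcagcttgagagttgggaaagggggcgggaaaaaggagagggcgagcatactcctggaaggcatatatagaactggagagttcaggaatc
Of the 4 motifs searched, the others being GCCNNNGGC for TFAP2 factors and CATTCC for TEAD factors, the distal window held 1 GATAA and 1 TTTAT and the proximal window 1 TTTAT. Among all 32851 RefSeq windows of this length, 22.6% held GATAA and 37.3% held TTTAT. Plac1 was at 0.454 CPM in Ground_R9wt_D1, 1.11 in Ground_R9wt_D5, 0.897 in Ground_R9del_D1, 5.69 in Ground_R9del_D5, 0.105 in Space_R9wt_D1, 1.76 in Space_R9del_D1, 41.7 in Space_R9wt_D5 and 2.10 in Space_R9del_D5. A single library, Space_R9wt_D5 with 2543 reads, thus stood far above the rest. Its level was 399-fold that of Space_R9wt_D1, where only 7 reads were counted, and 37.7-fold that of Ground_R9wt_D5. In the other 3 pairs the D5 to D1 ratio was 2.44 (Ground_R9wt), 6.34 (Ground_R9del) and 1.19 (Space_R9del).

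The keratin genes had the highest levels and followed each other. Krt8 (chr15:101827142-101834773, minus strand) and Krt18 (chr15:101858647-101862457, plus strand) are divergent neighbours whose 5′ ends are 23.9 kb apart. Their upstream windows, chr15:101834774-101835023 on the minus strand and chr15:101858397-101858646 on the plus strand, follow from the same source and are shown because the pair had the highest Pearson's r among the listed genes. Capitals mark GATAA on either strand in both, and GCCNNNGGC in Krt18.
Krt8 upstream: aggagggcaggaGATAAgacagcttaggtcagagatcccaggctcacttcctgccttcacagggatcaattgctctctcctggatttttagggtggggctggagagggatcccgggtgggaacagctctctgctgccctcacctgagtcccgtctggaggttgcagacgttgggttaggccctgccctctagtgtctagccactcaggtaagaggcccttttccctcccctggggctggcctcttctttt
Krt18 upstream: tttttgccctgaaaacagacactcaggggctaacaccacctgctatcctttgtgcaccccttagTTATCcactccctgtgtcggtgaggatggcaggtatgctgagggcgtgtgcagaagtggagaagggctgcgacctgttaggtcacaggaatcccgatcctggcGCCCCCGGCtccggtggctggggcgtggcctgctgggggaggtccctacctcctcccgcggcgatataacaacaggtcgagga
Each window held 1 GATAA, and that of Krt18 also 1 GCCNNNGGC, which 13.7% of all windows hold. Of the 10 genes, 7 had RefSeq windows, 10 windows in all. GATAA stood in 4 of these 10, GCCNNNGGC in 4 (Cdx2, Gata3, Krt18 and the second start of Gata2), TTTAT in 4 and CATTCC in 2, the last against 12.6% of all windows. A match to letters is a description of the sequence only.

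Krt18 was at 80.8 CPM in Ground_R9wt_D1, 1398 in Ground_R9wt_D5, 103 in Ground_R9del_D1, 407 in Ground_R9del_D5, 111 in Space_R9wt_D1, 160.0 in Space_R9del_D1, 1790.3 in Space_R9wt_D5 and 248 in Space_R9del_D5. All 4 D5 libraries lay above all 4 D1 libraries, and the 2 R9wt libraries stood out among them. D5 levels were 17.3-fold (Ground) and 16.1-fold (Space) those of D1 in R9wt, and 3.95-fold and 1.55-fold in R9del. Krt8 followed, with 36.8, 246, 68.4, 189, 33.3, 592, 84.5 and 126 CPM in the Ground libraries R9wt_D1, R9wt_D5, R9del_D1 and R9del_D5 and then the Space libraries in that order. Again no D1 library reached a D5 library. The ratio of Krt18 to Krt8 per length lay between 1.94 and 4.31 in 7 libraries and was 7.33 in Ground_R9wt_D5. A near-identical copy of 96% of the Krt8 transcript lies at chr7:24142113-24143830, overlapping the span of Nlrp4e, so reads of Krt8 could be shared with it. Nlrp4e itself had 0 to 7 counts per library. Whether the copy lies in its exons was not checked, so these counts cannot show if reads were shared.

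Among the transcription factors, Gata3 and Gata2 showed the same excess in R9wt at D5. Gata3 (chr2:9778705-9811661) was at 3.0 CPM in Ground_R9wt_D1, 30.4 in Ground_R9wt_D5, 6.46 in Ground_R9del_D1, 9.57 in Ground_R9del_D5, 7.75 in Space_R9wt_D1, 21.6 in Space_R9del_D1, 86.3 in Space_R9wt_D5 and 9.04 in Space_R9del_D5. Its D5 level was 10.1-fold (Ground) and 11.1-fold (Space) that of D1 in R9wt, 1.48-fold in Ground_R9del and, in the opposite direction, 0.419-fold in Space_R9del. Exons of 9230102O04Rik, on the same strand, and of the antisense gene Gm13256 cover 5.83% of those of Gata3, and the handling of strand in the counting is not given in the sources used here. Gata2 (chr6:88143885-88157024) was at 2.07, 17.4, 3.09, 5.66, 1.21, 12.5, 1.25 and 0.721 CPM in the order given for Krt8. It was therefore above 10 CPM in the R9wt D5 libraries alone, and its D5 to D1 ratios were 8.38 and 10.3 in R9wt against 1.83 and 0.576 in R9del.

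Hand1, Tfap2c and Tead4 differed from this pattern. Hand1 (chr11:57642207-57646320) was at 2.11 CPM in Ground_R9wt_D1, 14.4 in Ground_R9wt_D5, 16.8 in Ground_R9del_D1, 63.3 in Ground_R9del_D5, 2.05 in Space_R9wt_D1, 29.3 in Space_R9del_D1, 113 in Space_R9wt_D5 and 33.7 in Space_R9del_D5. It was at its lowest in both R9wt D1 libraries, and R9del exceeded R9wt by 7.98-fold (Ground) and 14.3-fold (Space) at D1. Tfap2c (chr2:172375093-172384122), which naive mESCs and germ cell precursors also express, was at 71.6, 132, 67.3, 179, 33.8, 163, 78 and 81.6 CPM in the order given for Krt8, with Ground_R9del_D5 the highest. Of its transcript, 33% has a near-identical copy at chr4:155479579-155480569. Tead4 (chr6:128174306-128250841) was at 14.8, 25, 18.5, 21.0, 7.66, 19.8, 14.6 and 18.6 CPM in that order. Its D5 libraries, at 18.6 CPM and above, lay just above the D1 libraries, the highest of which was at 18.5 CPM.

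Cdx2 and Elf5, which mark trophoblast stem cells, had the fewest reads. Cdx2 (chr5:148112381-148118846) was at 0.663 CPM in Ground_R9wt_D1, 2.93 in Ground_R9wt_D5, 1.70 in Ground_R9del_D1, 0.82 in Ground_R9del_D5, 0.149 in Space_R9wt_D1, 0.156 in Space_R9del_D1, 0.377 in Space_R9wt_D5 and 0.0671 in Space_R9del_D5, from 57, 262, 114, 60, 10, 11, 23 and 4 reads in turn. Every Ground library was above every Space library. Elf5 (chr2:103251845-103291146) had at most 26 reads in a library and 91 in all. It was at 0.426 CPM in Space_R9wt_D5 and at 0.284 CPM or below elsewhere. No read was counted in Ground_R9del_D1, which allows up to 0.0449 CPM (3 counts, for counting error only). Elf5 did not pass the filter on low counts over all libraries, so 9 of the 10 genes were tested below. The fit of the R9wt libraries on their own did keep Elf5. Near-identical stretches at 58 other loci cover 5.7% of its transcript.

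To ask whether culture duration bore on these genes, D5 libraries were compared with D1 libraries. Keratins, Plac1, Hand1, Gata2 and Tfap2c were higher at D5, by 2.22-fold (Tfap2c) to 15.7-fold (Plac1), but none passed the adjusted threshold. With edgeR's quasi-likelihood test, a call needed a fold change of at least 2 with a Benjamini-Hochberg adjusted p under 0.05, or, as the study's own threshold, with an unadjusted p under 0.05. No gene of the 20473 tested passed the adjusted rule (percent called: 0), 895 had an unadjusted p under 0.05, and DESeq2 called 90. By the unadjusted rule 6 of the 9 tested members passed, all higher at D5, against 3.49% of all genes in either direction and 2.43% upward. Krt18 was at 961 ± 752 CPM (SD, n = 4) at D5 and 114 ± 33.4 CPM at D1, a log2 fold change of 3.08 (SE 0.61, adjusted p = 0.671). For Krt8 the difference was 2.37 (SE 0.52, adjusted p = 0.861). Plac1 differed by 3.97 (SE 1.25, adjusted p = 0.979), Gata2 by 2.25 (SE 0.79), Hand1 by 2.16 (SE 0.92) and Tfap2c by 1.15 (SE 0.34). Values for the other tested members were 1.80 (SE 0.82) for Gata3, 0.65 (SE 1.08) for Cdx2 and 0.60 (SE 0.32) for Tead4. Without Space_R9wt_D5 Gata3 was at 0.72, and without Ground_R9wt_D5 Cdx2 was at -0.66.

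DESeq2's Wald test placed Krt18 (adjusted p = 0.000463), Krt8 (0.00856) and Plac1 (0.0288) past the adjusted threshold. Leaving out 1 library at a time, 4 to 7 members passed the unadjusted rule, and without Space_R9wt_D5 these were Krt18 (2.56), Krt8 (1.72), Gata2 (2.03) and Tfap2c (1.04), while Plac1 (1.86) and Hand1 (1.54) did not pass. Without Space_R9wt_D1 they were Krt18, Krt8, Gata2 and Plac1. With matched pairs as a block, 4 passed (Krt18, Krt8, Hand1 and Tfap2c), and Plac1 was at 2.5. The 6 members Plac1, Tfap2c, Hand1, Krt8, Krt18 and Tead4 were higher at D5 in 4 of 4 pairs, as were 10.6% of genes tested. For Tfap2c, Krt8, Krt18 and Tead4 the D5 and D1 groups did not overlap, which held for 2.85% of genes. The median log2 fold change of the 9 tested members was 2.16, and that of all genes was -0.01.

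**Figure D2:**
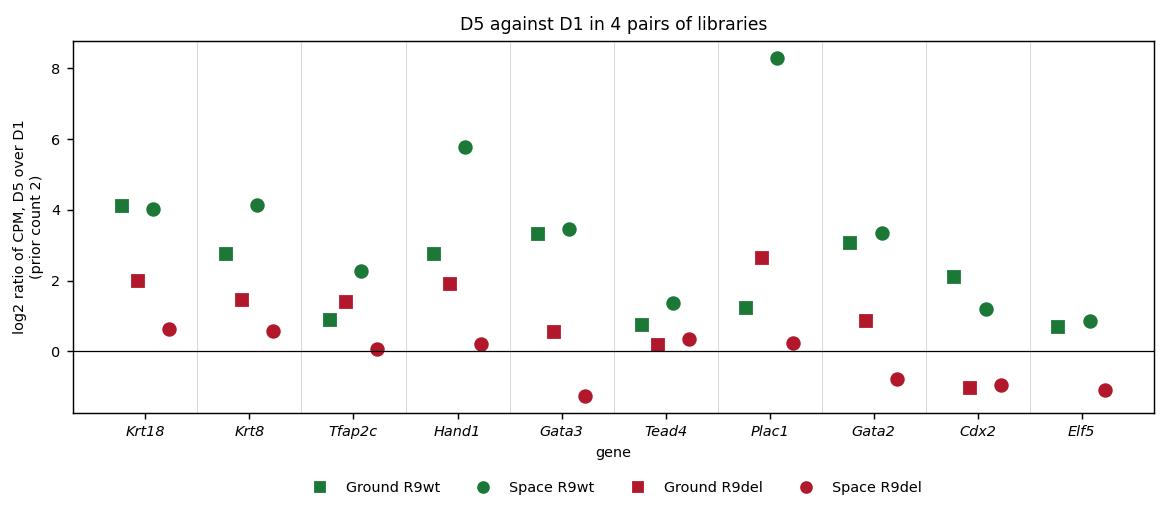
Log2 ratio of D5 to D1 CPM (prior count of 2) for each of the 10 genes in 4 pairs of libraries. Squares are Ground and circles Space pairs, green is R9wt and red R9del, and the Elf5 pair with a library at 0 counts is not drawn. All R9wt ratios were above 0, with Plac1 in Space at 8.30, and the R9del ratios of Gata3, Gata2, Cdx2 and Elf5 in Space were below 0. The R9del ratio of Cdx2 on the Ground was also below 0, at -1.03.

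After these values had been seen, the 2 genotypes were also compared on their own, 2 D5 against 2 D1 libraries each. In these fits the D5 to D1 difference was larger in R9wt than in R9del for all 9 members tested in both, although in the Ground pairs alone Plac1 and Tfap2c had the larger ratio in R9del. In R9wt, 7 of 10 members passed the unadjusted rule (Plac1, Hand1, Krt18, Krt8, Gata3, Gata2 and Tfap2c) against 3.77% of genes. Their log2 fold changes ran from 1.47 (Tfap2c) to 6.22 (Plac1), and none passed after adjustment. Elf5, which this fit kept, was at 0.91 (SE 1.3) and did not pass. In R9del, 2 passed, Krt18 (1.31) and Krt8 (1.04), against 3.99% of genes. In single pairs, without a test, 7 of 9 members with at least 1 CPM were at least 2-fold higher at D5 in Ground_R9wt (14.6% of genes) and 8 of 8 in Space_R9wt (14.4%), but 5 of 9 in Ground_R9del (5.72%) and 0 of 8 in Space_R9del (5.75%).

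The difference itself was tested as an interaction of genotype and culture duration with location as a covariate, also added after seeing the values. No gene passed the adjusted rule (percent called: 0), 900 had an unadjusted p under 0.05, and DESeq2 called 156. By the unadjusted rule 6 of the 9 members passed, each with a smaller D5 to D1 difference in R9del, against 4.21% of genes. The term was -3.67 (SE 0.68, adjusted p = 0.402) for Gata3, -3.41 (SE 1.16) for Hand1, -2.98 (SE 0.89) for Gata2, -2.81 (SE 0.95) for Cdx2, -2.70 (SE 0.50, adjusted p = 0.402) for Krt18 and -2.46 (SE 0.60) for Krt8. Plac1, at -4.22 (SE 2.37), did not pass, and its term was -0.50 without Space_R9wt_D5, where that of Hand1 was -1.72. Without Space_R9wt_D1 or Space_R9del_D5 the term of Plac1 was -2.22 or -2.30. DESeq2 placed Gata3 (8.38e-05), Krt18 (0.00115) and Krt8 (0.028) past the adjusted threshold. Gata3, Gata2, Krt18 and Krt8 passed the unadjusted rule whichever library was left out.

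Seen from the genotype, the same values changed order with time. At D1, 8 of the 9 tested members were higher in R9del than in R9wt in both locations, against 33.7% of genes, and at D5, 6 were lower in both, against 30.9%. Cdx2, Gata3, Krt8, Krt18, Gata2 and Tead4 did both, as did 3.45% of genes. For Cdx2 and Gata2 the Space pair at D1 was nearly equal, with 11 against 10 reads (1.05-fold) and 88 against 81 reads (1.03-fold). For Tead4 the Space pair at D5 was nearly equal (0.944-fold), and the Ground pair at D5 was at 0.842-fold. Over the 4 R9del and 4 R9wt libraries together, no tested member passed either rule in edgeR, where 1.81% of genes passed the adjusted and 13.8% the unadjusted rule. None had an unadjusted p under 0.05, and DESeq2 gave 2 at that level (Krt18 and Gata2) and 0 after adjustment. Krt18 was at 229 ± 132 CPM in R9del and 845 ± 880 CPM in R9wt (SD, n = 4; log2 fold change -1.88, SE 0.92, adjusted p = 0.284), and the difference was -0.92 with matched pairs as a block, -0.89 in the additive model and -1.19 without Space_R9wt_D5. All 9 tested members overlapped between the genotypes, while 14.3% of genes did not. Plac1 differed by -2.05 (SE 1.49) with all libraries and by 2.24 without Space_R9wt_D5, and with all libraries kept it was 1.17 with matched pairs as a block and 0.14 in the additive model of the 3 variables, so no direction is given for Plac1. Without Space_R9wt_D5, Plac1 and Hand1 (2.54) passed the unadjusted rule with higher levels in R9del. With matched pairs as a block Hand1 passed the unadjusted rule at 2.05.

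Space and Ground were compared to ask whether these genes differed with location. Cdx2 was lower in Space in all 4 pairs, by 4.44-fold (R9wt D1), 7.77-fold (R9wt D5), 10.9-fold (R9del D1) and 12.2-fold (R9del D5). Its level was 0.187 ± 0.133 CPM in Space and 1.53 ± 1.04 CPM on the Ground (SD, n = 4), a log2 fold change of -3.02 (SE 0.71, adjusted p = 0.0319 with edgeR). It was the single member called of 9, where 5.55% of all genes were called by the adjusted and 11.0% by the unadjusted rule. The call was lost in 5 of 8 fits that left out 1 library (Ground_R9wt_D5, Ground_R9del_D1, Space_R9wt_D1, Space_R9del_D1 or Space_R9del_D5), with adjusted p from 0.0316 to 0.091 over the 8 and a log2 fold change from -3.59 to -2.49. Gata2 and Tead4 were also lower in Space in 4 of 4 pairs, as were 18.2% of genes, with log2 fold changes of -0.85 (SE 0.98) and -0.39 (SE 0.33), where Gata2 was at 0.12 without Ground_R9wt_D5 and Tead4 at -0.17 without Space_R9wt_D1. Cdx2 was the only tested member whose groups did not overlap, against 14.4% of genes. Elf5, not tested, had higher levels in all 4 Space libraries (0.117 to 0.426 CPM) than in the Ground libraries (0 to 0.112 CPM). The groups were nearly tied, with 7 reads in Space_R9del_D5 against 10 in Ground_R9wt_D5 and 8 in Ground_R9del_D5 (1.07-fold for the R9del D5 pair). With matched pairs as a block, Gata3 (1.15) and Gata2 (-1.34) joined Cdx2 under the unadjusted rule.

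Other members gave no call between Space and Ground. Plac1 was at 11.4 ± 20.2 CPM in Space and 2.04 ± 2.45 CPM on the Ground (log2 fold change 2.49, SE 1.45, adjusted p = 0.413), and the difference was 0.41 with matched pairs as a block and -0.62 without Space_R9wt_D5. It was higher in Space in 2 pairs and lower in 2. Hand1 and Krt8 likewise turned negative without that library (-0.15 and -0.72), Krt8 was at 0.21 with the block, and Krt18 went from 0.22 (SE 1.05) to -1.51. Gata3 was higher in Space in 3 of 4 pairs (1.34, SE 0.88), with 0.07 without that library. Whether the Space to Ground difference itself depended on genotype was tested as an interaction, adjusted for D1 or D5, and gave 0 calls among the 9 members by either rule and none with an unadjusted p under 0.05 in edgeR or DESeq2. Over all genes 0% passed the adjusted and 2.79% the unadjusted rule, with 609 at an unadjusted p under 0.05 and 23 called by DESeq2. The term for Plac1 was -3.44 (SE 2.49) and that for Cdx2 -0.76 (SE 1.34). Without the covariate for culture duration, the term for Plac1 was -5.51.

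**Figure D3:**
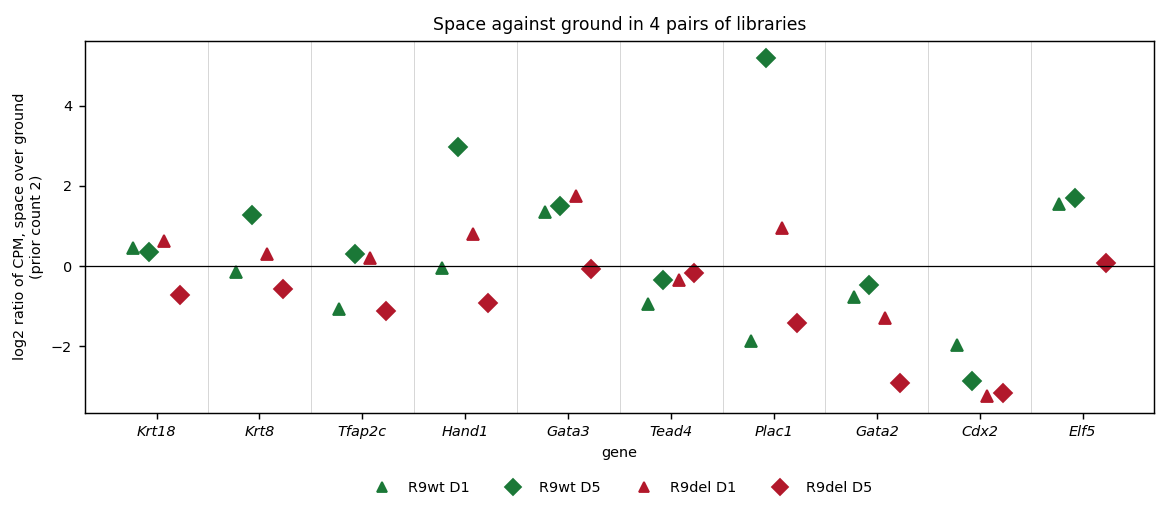
Log2 ratio of Space to Ground CPM (prior count of 2) for each of the 10 genes in 4 pairs of libraries. Triangles are D1 and diamonds D5 pairs, green is R9wt and red R9del, and the Elf5 pair with a library at 0 counts is not drawn. Cdx2 lay below 0 in all 4 pairs, and Plac1 and Hand1 were far above 0 in R9wt at D5, at 5.20 and 2.96.

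Other genes of the lineage were read from lists written from general knowledge. Of 18 trophoblast stem cell genes, 17 were tested, 13 of them not among the 10. Between D5 and D1, 3 of these 13 passed the unadjusted rule, all higher at D5, against 2.43% of all genes upward, and none by the adjusted rule. These were the X-linked homeobox genes Rhox6 (log2 fold change 3.88, SE 0.91) and Rhox9 (3.72, SE 0.89) and the receptor gene Fgfr2 (1.06, SE 0.41). Rhox6 was at 83.1 CPM in Space_R9wt_D5 and at 0.552 to 17.4 CPM in the other libraries, so this library stood apart as it did for Plac1. Of 28 genes of differentiated trophoblast, 21 were tested, 19 of them not among the 10, and 6 of these 19 were higher at D5 by the unadjusted rule, against the same 2.43%. Slco2a1, a prostaglandin transporter, differed by 2.91 (SE 0.56) and Krt7, a further simple epithelial keratin, by 3.36 (SE 0.69). Wnt7b (1.80), Cited1 (1.41), Krt19 (1.16) and Plac8 (1.03) were the others. Median log2 fold changes were 0.39 and 0.80 over these 13 and 19 genes, and 0.61 and 0.84 with the members of the 2 lists included. Among the most abundant genes were Zfp42 (84.1 to 852 CPM), Tfap2c and Cdh3 (48.6 to 137 CPM) in the first list, where Zfp42 is also an mESC gene, and Peg10 (72.2 to 926 CPM) and Tfpi (53.1 to 271 CPM) in the second. In the second list, 5 of the 28 genes (Synb, Tpbpa, Prl3b1, Prl2c2 and Ctsq) had no read in any library and Prl3d1 had 7 reads, all in Space_R9wt_D5, while the syncytiotrophoblast genes Syna (0.0782 to 1.08 CPM) and Gcm1 (0.593 to 6.6 CPM) had reads in all 8.

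Between Space and Ground, Ovol2, a zinc finger transcription factor, was lower in Space by 3.37 on the log2 scale (-3.37, SE 0.39, adjusted p = 0.000566), and Esrrb, which trophoblast stem cells share with mESCs, was higher (1.16, SE 0.21, adjusted p = 0.00796). Ascl2, a spongiotrophoblast factor, was at -1.36 (adjusted p = 0.0731). By the unadjusted rule 2 of 17 and 2 of 21 tested genes of the 2 lists passed, Cdx2 included, near the 11.0% of all genes. Between R9del and R9wt, Bmp4 was higher in R9del (2.40, SE 0.32, adjusted p = 0.0297). Eomes (-1.17), Dlx3 (-1.40), Phlda2 (-1.05) and Peg10 (1.73) passed the unadjusted rule alone, which makes 2 of 17 and 3 of 21 tested genes of the 2 lists by that rule, near the 13.8% of all genes. In the interaction of genotype and culture duration, Gata3, Rhox6 (-3.64), Id2 (-2.51), Lgals1 (-1.61), Cdx2 and Plet1 (-1.21) of the stem cell list passed the unadjusted rule. So did Hand1, Krt7 (-3.36), Gcm1 (-3.33), Wnt7b (-2.72) and Sct (-2.44) of the differentiated list. These were 6 of 17 and 5 of 21 against 4.21% of all genes. Without the members they were 4 of 13 and 4 of 19, in the direction of the 6 members.

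Upstream of Cdx2, 14 genes of the Hippo and TEAD arm were tested. Wwtr1, the coactivator also called TAZ, was lower in Space (-1.25, SE 0.24, adjusted p = 0.0109), with 14.7 to 24.4 CPM in Space and 37.9 to 50.6 CPM on the Ground, and it was the single one of the 14 past either rule there, against 5.55% (adjusted) and 11.0% (unadjusted) of all genes, a share near the background. Its homologue Yap1 was at 33.3 to 64.6 CPM over all libraries. Between genotypes Tead2 was lower in R9del (-1.04, SE 0.22, adjusted p = 0.0462), and Tead3 (-1.07) and Nf2 (1.32) passed the unadjusted rule alone, so 3 of 14 passed it against 13.8% of all genes. No gene of the arm passed either rule between D5 and D1. Its most abundant genes were Amotl2 (61.2 to 285 CPM), Nf2 (38.2 to 202 CPM) and Tead2 (62.9 to 176 CPM). In the interaction of genotype and culture duration, Amotl2 (-2.01), Lats2 (-1.92) and Vgll4 (-1.24) passed the unadjusted rule (4.21% of all genes), and in that of location and genotype Lats1 (1.67) did (2.79%).

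Markers of other cell types were read in the same way. Of 12 primitive endoderm genes, 6 were higher at D5 by the unadjusted and 0 by the adjusted rule, as were 2 of 5 visceral endoderm, 2 of 7 germ cell, 2 of 8 simple epithelium (Krt7 and Krt19) and 2 of 5 tested fibroblast feeder genes, and 0 of 8 tested mesoderm and 10 mESC genes, against 2.43% of all genes. For primitive endoderm the summed level was 1169 to 3649 CPM at D5 and 862 to 1347 CPM at D1. Space_R9del_D5 was as high in this sum as Space_R9wt_D5 (3561 and 3649 CPM), unlike in the keratins. The visceral endoderm sum over 5 genes was 41.9 to 142.8 CPM at D5 and 6.51 to 28.6 CPM at D1, with Afp and Ttr at 1.24 CPM or below. The sum of 8 simple epithelium genes was 942 to 3560.0 CPM at D5 and 1284 to 2239 CPM at D1, that of 8 fibroblast feeder genes 31.1 to 66.2 and 24.9 to 31.5 CPM, with Dcn, Lum, Postn and Col3a1 at 0.235 CPM or below. Germ cell genes (7) summed to 82.2 to 191 CPM at D5 and 57.8 to 98.2 CPM at D1, and mesoderm genes (10) to 12.6 to 19.5 and 8.64 to 42.5 CPM. The mESC sum was 5146 to 7142 CPM at D5 and 4440 to 8052 CPM at D1. The part of these cell types in the trophoblast gene levels was not tested.

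Between Space and Ground, markers of other lists differed beside Cdx2. The endoderm factor Sox17 was lower in Space (-3.92, SE 0.81, adjusted p = 0.0181), at 0.0597 to 0.77 CPM against 2.42 to 6.11 CPM on the Ground, as was the epithelial adhesion gene Epcam (-2.56, SE 0.28, adjusted p = 0.000364), at 50.9 to 72.8 against 289 to 602 CPM. These were the 2 called of 12 primitive endoderm and 8 simple epithelium genes by the adjusted rule, against 5.55% of all genes. By the unadjusted rule, which 11.0% of all genes passed, 4 of the 12 (Lama1, Lamb1, Col4a1 and Pdgfra) were higher in Space, of 5 visceral endoderm genes Cubn was higher and Amn lower (-3.23, adjusted p = 0.0504), and Mesp1 was lower among 8 tested mesoderm genes, at 0.232 to 0.748 CPM on the Ground and at most 0.105 CPM in Space, where 2 libraries had no read. Summed levels were 1156 to 3649 CPM in Space and 862 to 1580.1 CPM on the Ground for primitive endoderm, 942 to 3324 and 1284 to 3560.0 CPM for simple epithelium, 6.51 to 142.8 and 25.6 to 61.1 CPM for visceral endoderm, and 8.64 to 19.5 and 9.79 to 42.5 CPM for mesoderm. Germ cell and fibroblast feeder genes gave no call, and of the mESC genes Esrrb was higher in Space.

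Between genotypes, the simple epithelium sum did not overlap, with 942 to 1618 CPM in R9del and 1764 to 3560.0 CPM in R9wt. Of all single genes, 14.3% did not overlap. The most abundant genes weigh most in the sum, namely Cdh1 and Cldn4. Cdh1 overlapped (433 to 814 CPM in R9del, 567 to 1164 CPM in R9wt), and Cldn4 did not (191 to 512 and 545 to 1729 CPM). The claudin gene Cldn3 was lower in R9del (-1.83, SE 0.39, adjusted p = 0.0494), and Cldn4 (-1.91) and Cldn7 (-1.99) passed the unadjusted rule alone, so 3 of the 8 genes were lower by that rule, against 13.8% of all genes in either direction. In the interaction of genotype and culture duration, genes of other lists passed the unadjusted rule in the direction of the trophoblast genes, namely 2 of 5 tested fibroblast feeder genes (Acta2 at -4.23 and Col1a2 at -2.58), 1 of 5 visceral endoderm genes (Afp, without a read in 2 libraries), 1 of 7 germ cell genes (Dazl at -1.68) and 1 of 8 simple epithelium genes (Krt7), against 4.21% of all genes. Acta2 was at 10.3 and 37.2 CPM in the R9wt D5 libraries and at 0.407 to 6.31 CPM elsewhere. None passed after adjustment, and the part of these cell types in the genotype and location differences of the trophoblast genes was not tested.

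Levels were also compared over the 8 libraries by Pearson's r of log2 CPM, as a description, since each library gives 1 point for all genes and shares its depth among them. Among 13047 genes with a mean log2 CPM of at least 1, those most like Plac1 were Krt19 (r = 0.992), Slc40a1 (0.955), St3gal3 (0.955), Rhox9 (0.952) and Mir22hg (0.950). Without Space_R9wt_D5 their r was 0.985, 0.891, 0.971, 0.891 and 0.880, over 7 of the 8 libraries by which they were chosen. Krt8 was most like Rhox6 (0.980), 3830417A13Rik (0.979) and Zbtb10 (0.978), and Krt18 most like Krt7 (0.985), Snx2 (0.978) and Rhou (0.976). For Gata3 the leading genes were Lmod1, Wscd2 and Kremen1 (0.965 to 0.980), for Gata2 Trib3, Slc39a8 and Hlcs (0.955 to 0.969), and for Hand1 Kif3a, Slc25a20 and Wapl (0.974 to 0.979). Tfap2c was most like Acbd4, Trim12c and Lrrc41 (0.956 to 0.966), and Tead4 most like Pik3cb, Etfb and Ube2q1 (0.963 to 0.972). Cdx2 resembled Hif1a (0.979), 2610524H06Rik (0.978) and Smc4 (0.973), and Elf5 resembled Pogz, Jak1 and Tmod3 (0.948 to 0.974). The values for Elf5 rest on 0 to 26 reads per library. Its log2 CPM in Ground_R9del_D1, with 0 reads, was set by the prior count of 2.

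**Figure D4:**
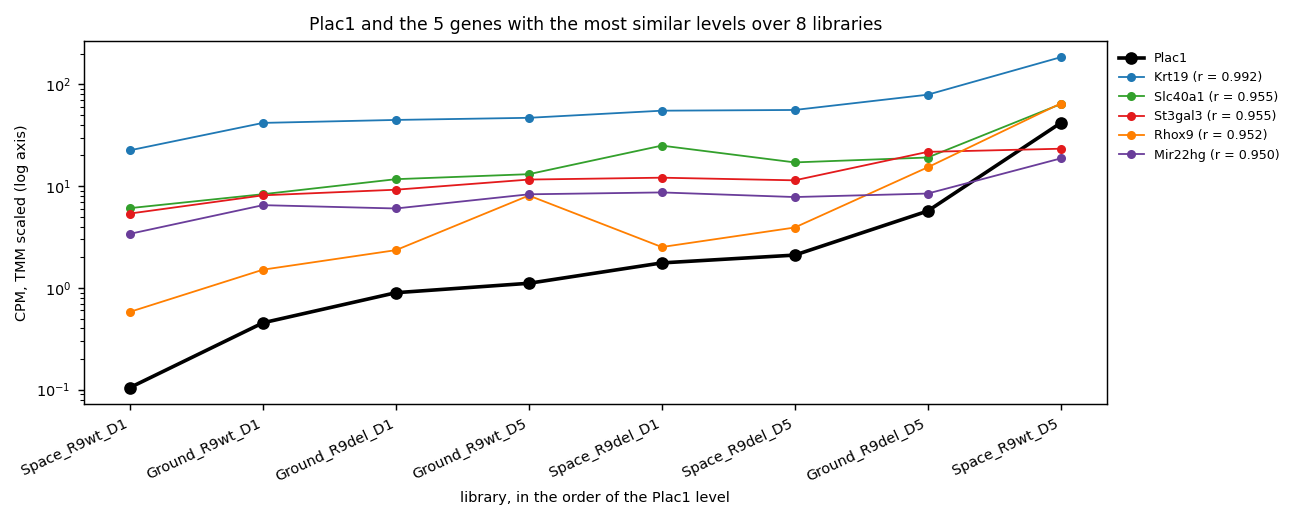
Level of Plac1 (black) and of the 5 genes most like it, in TMM-scaled CPM on a log axis, with libraries ordered from the lowest to the highest Plac1 level. Each point is 1 library. Plac1 ran from 0.105 to 41.7 CPM, while Krt19 ran from 22.5 to 185 CPM in the same order.

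Among the listed genes, Krt8 and Krt18 had the highest Pearson's r (0.94, from 0.90 to 0.97 on leaving out a library in turn), while Spearman's rho was 0.93 for them and 0.98 for Plac1 with Hand1. For Plac1, r was 0.91 with Hand1 (0.87 to 0.95 on leaving out a library), 0.89 with Krt8 (0.79 to 0.98), 0.84 with Tfap2c (0.74 to 0.91), 0.72 with Krt18 (0.47 to 0.92), 0.71 with Gata3 (0.34 to 0.79), 0.64 with Tead4 (0.29 to 0.77), 0.51 with Gata2 (0.25 to 0.72) and 0.38 with Elf5 (-0.04 to 0.68). The spans of neighbours in this order overlap, and the lowest values for Krt8, Krt18, Gata3 and Gata2 came without Space_R9wt_D5. With Cdx2 it was 0.02 (-0.25 to 0.12), and Cdx2 in turn was closest to Gata2 (0.75).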

How the data were processed

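RNA from 8 mESC samples was sequenced as paired-end reads. Per the submitters' processing notes and the study's methods, the authors used FastQC, aligned reads to mm9 with TopHat2 2.0.9 and used edgeR. The deposited values are whole-number read counts per Ensembl gene, without normalization. The counting program, its annotation and its use of strand are not given in the sources used here.

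From the counts, TMM-scaled CPM and quasi-likelihood tests were computed with edgeR 4.0.16 (R 4.3.3) on the 20473 genes kept by filterByExpr with a minimum count of 10, with Benjamini-Hochberg adjustment over all of them. Log2 CPM used a prior count of 2. DESeq2 1.42.0, other scalings, no filter, an additive model, a block of matched pairs and leaving out each library were the alternatives. The fits were also tested on simulated data, but no result of that test is given here. Gene models and lengths came from GENCODE M1 (NCBIM37, which is mm9), promoter windows from RefSeq, and near-identical copies (at least 95% identity over at least 100 bases) from blastn 2.17.0.

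Pairs are the libraries that share the other 2 conditions in the labels. Their deviations from the group means correlated at 0.284 to 0.61, above 0.1 in every pair, so a block of pairs was fitted beside each group comparison.

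Named were the 10 genes in every library, the wider trophoblast and Hippo list genes past the unadjusted rule in a comparison and the 3 of each list with the highest mean CPM, and the 5 genes most like Plac1 and 3 most like each other member. A gene that this rule names is not reported here. The members, lists and rules were chosen with earlier results of these data known. Esrrb, Zfp42, Id2, Bmp4 and Tead4 count in the stem cell list but were not summed.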

Additional observations from a re-analysis of the deposited data

Results flagged for a closer look

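Each gene was examined in 6 groups of 4 libraries for a library far from the rest by Dixon's test at 95%, on CPM without a log scale. The test's chance rate of about 1 group in 20 holds for 4 replicates with normally distributed values. Here each group mixed 4 conditions and the groups shared libraries, so that rate does not apply and the flags are a description. Of the 60 groups, 10 were flagged, 8 of them for Space_R9wt_D5. Plac1 in Space_R9wt_D5, at 41.7 CPM, stood apart among Space libraries (others 0.105 to 2.10 CPM), R9wt libraries and D5 libraries. In the Ground libraries Plac1 was highest in Ground_R9del_D5 at 5.69 CPM, with the others at 0.454 to 1.11 CPM. Space_R9wt_D5 also stood apart for Hand1 among R9wt libraries (112.9 CPM, others 2.05 to 14.4) and for Krt18 (1790.3 CPM), Krt8 (592 CPM) and Gata2 (12.5 CPM) among Space libraries. Elf5 was at 0.426 CPM there against 0.109 to 0.117 CPM in the other D5 libraries, from at most 26 reads. Tfap2c was at 179 CPM in Ground_R9del_D5 against 67.3 to 81.6 CPM in the other R9del libraries.

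For several genes R9del lay above R9wt in both locations at D1 and below it in both at D5. The mean log2 ratio of R9del to R9wt at D5 minus that at D1 was -3.74 for Gata3, -3.15 for Gata2, -2.75 for Krt18, -2.64 for Cdx2, -2.42 for Krt8 and -0.79 for Tead4. For Cdx2 the D5 to D1 ratio also had opposite signs in R9wt and R9del, with the same difference of -2.64. The interaction of genotype and culture duration was tested, and none of these genes passed after adjustment in edgeR.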

How the results depend on the processing

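Every alternative scaling, the missing filter, the additive model and DESeq2 kept the call of Cdx2 between Space and Ground, and leaving out 1 library gave 0 to 1 members called (1 to 2 by the unadjusted rule). The matched pairs as a replicate block gave 3 members by the unadjusted rule there and 1 between genotypes, and changed no other count by over 1.5 times. Between genotypes the unadjusted rule gave 2 members with DESeq2 and 0 to 2 on leaving out a library. Adjusted calls rose from 0 to 3 with DESeq2 between D5 and D1 and to 3 in the interaction of genotype and culture duration.

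Directions turned in 7 of 126 alternative values between Space and Ground, 13 of 126 between genotypes and 3 of 144 between D5 and D1, and in none of 90 and 27 for the 2 interactions. Leaving out 1 library spanned, for Space against Ground, -0.62 to 3.79 (Plac1), -0.15 to 2.00 (Hand1), -0.72 to 1.09 (Krt8), -1.51 to 1.55 (Krt18) and -2.71 to 0.12 (Gata2). For R9del against R9wt it spanned -2.74 to 2.24 (Plac1), -1.56 to 0.79 (Cdx2), -0.38 to 0.37 (Tfap2c), -0.28 to 2.54 (Hand1), -1.31 to 0.17 (Krt8) and -0.11 to 0.37 (Tead4), and for D5 against D1 -0.66 to 1.69 (Cdx2). Plac1 between genotypes was 1.17 with the block and 0.14 in the additive model. Within R9del, D5 against D1 was -1.06 for Cdx2 and -0.59 for Gata3. The correlation with Plac1 spanned -0.25 to 0.12 for Cdx2 and -0.04 to 0.68 for Elf5. The cause was not tested. Depth limits Elf5 and Cdx2, with 0 to 262 reads per library.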
